A study of Mus musculus with 3 samples.

Results

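Aminoacyl-tRNA synthetases are the enzymes that load each transfer RNA with its amino acid before the ribosome uses it. The genes were found by symbol: a capital letter followed by ars, with or without a final 1 or 2, plus Eprs, Farsa and Farsb. The rule found 37 of the 24982 gene symbols in the files, 20 for cytosolic enzymes and 17, ending in 2, for mitochondrial enzymes. RNA sequencing had been done on mouse bone marrow cells of the LKS gate (negative for lineage markers, positive for Kit and for Sca1), where blood stem cells and early progenitors are found. There was 1 library from CD73-/- recipient mice (the KO library) and there were 2 libraries from wild-type (WT) recipients. CD73, the product of Nt5e, turns extracellular AMP into adenosine. The sources used here do not give strain, age, the conditions of transplantation, the origin (donor or recipient) of the sorted cells or the number of animals behind a library. The labels also call the samples LLP cells, without explaining the term.

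Cytosolic and mitochondrial protein synthesis use separate sets of transfer RNAs, and in mammals nearly all amino acids have an enzyme for each compartment, both encoded in the nucleus. Gars and Kars are the exceptions that serve both compartments from a single gene. Several cytosolic enzymes (Dars, Eprs, Iars, Kars, Lars, Mars, Qars and Rars) sit together in the multisynthetase complex on the scaffold proteins Aimp1, Aimp2 and Eef1e1. Mitochondria lack a glutaminyl enzyme: Ears2 first loads glutamate, and an amidotransferase made of Qrsl1, Gatb and Gatc turns it into glutamine. Synthetase genes are known targets of Atf4, the transcription factor of the amino acid starvation response.

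Depth was low. The gene counts summed to 264704 in the KO library, against 361638 in WT replicate 1 and 324954 in WT replicate 2. A gene at 0 counts could still have up to 3 counts, which is 11.3 CPM (a gene's count as a share of the library's summed gene counts, on the usual CPM scale) in the KO library, against 8.30 and 9.23 CPM in the WT libraries. These limits cover counting error only. The WT libraries differed by far more than counting noise, with a chi-square of 12.5 per gene. Nt5e had 0 counts in all 3 libraries and so could not check the KO label. Of the gate's markers, Kit had 147 counts in the KO library, against 187 and 207 in the WT libraries, and Ly6a (Sca1) had 36, against 60 and 19. In CPM both KO levels lay between the WT levels. They were 555 CPM for Kit, against 517 and 637 CPM, and 136 CPM for Ly6a, against 166 and 58.5 CPM. The summed level of 8 dendritic cell genes was 2701 CPM in the KO library, against 149 and 588 CPM in WT, through H2-Aa, H2-Ab1, H2-Eb1 and Cd74, while Siglech, Zbtb46 and Batf3 were at 0 in every library. The summed level of 6 neutrophil genes was 366 CPM in KO, against 816 and 1080 CPM in WT, and that of 9 gate and early progenitor genes was 1666 CPM in KO, against 2386 and 2659 CPM in WT. For 7 erythroid genes the sum was 601 CPM in KO, against 426 and 129 CPM in WT. The summed levels were 132 CPM in KO, against 252 and 292 CPM in WT, for 7 stroma and endothelium genes. They were 0 CPM in KO, against 13.8 and 55.4 CPM in WT, for 5 B cell genes, of which Cd79a, Ms4a1 and Ebf1 were at 0 throughout. For 5 T and NK cell genes they were 155 CPM in KO, against 191 and 105 CPM in WT, nearly all from Nkg7, with Cd3e, Cd3g and Klrb1c at 0. The part of these differences in the synthetase values was not tested.

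All 20 cytosolic genes had counts in every library, and 12 of them reached 50 counts in some library. Of the 17 mitochondrial genes, Nars2 and Pars2, the asparagine and proline enzymes, had 0 counts in all 3 libraries, and 4 genes reached 50 counts. In total 32 of the 37 genes were detected in the KO library, against 35 in WT replicate 1 and 34 in WT replicate 2. The filter on low counts left 33 genes for testing, all 20 cytosolic and 13 mitochondrial ones. Rars2 and Yars2 were detected but stayed below it.

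**Figure D1:**
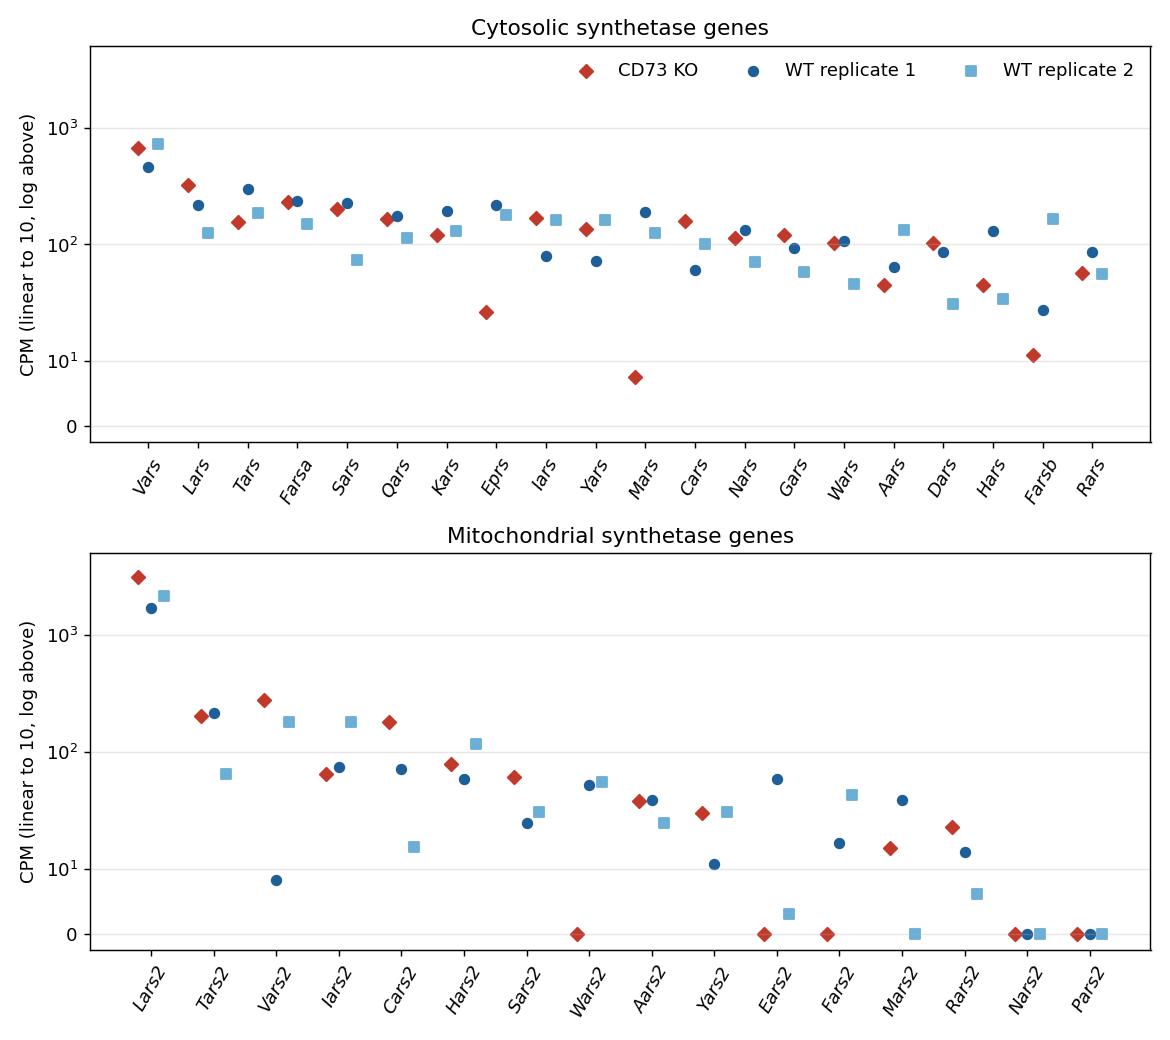
Level of 36 synthetase genes (CPM, linear up to 10 and logarithmic above) in the CD73 KO library (red diamonds) and WT replicates 1 and 2 (dark circles, light squares), ordered by mean level within each compartment. Lars2 stands above all others at 1690 to 3109 CPM, and Eprs and Mars show a KO point well below both WT points.

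Levels between genes were compared per transcript length, in FPKM (fragments per kilobase of transcript, scaled to library depth) summed over a gene's transcripts. The median cytosolic gene had 47.4 FPKM in the KO library, against 47.6 and 36.3 FPKM in WT replicates 1 and 2. The median mitochondrial gene had 18.8 FPKM in KO, against 13.1 and 14.6 FPKM in WT. Cytosolic genes were thus the higher group in each library by this measure. For 13 amino acids with a single gene for each compartment, the cytosolic gene had the higher FPKM for 8 in KO, 10 in WT replicate 1 and 10 in WT replicate 2. It was higher in all 3 libraries for 7 of them, and lower in all 3 for leucine alone.

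**Figure D2:**
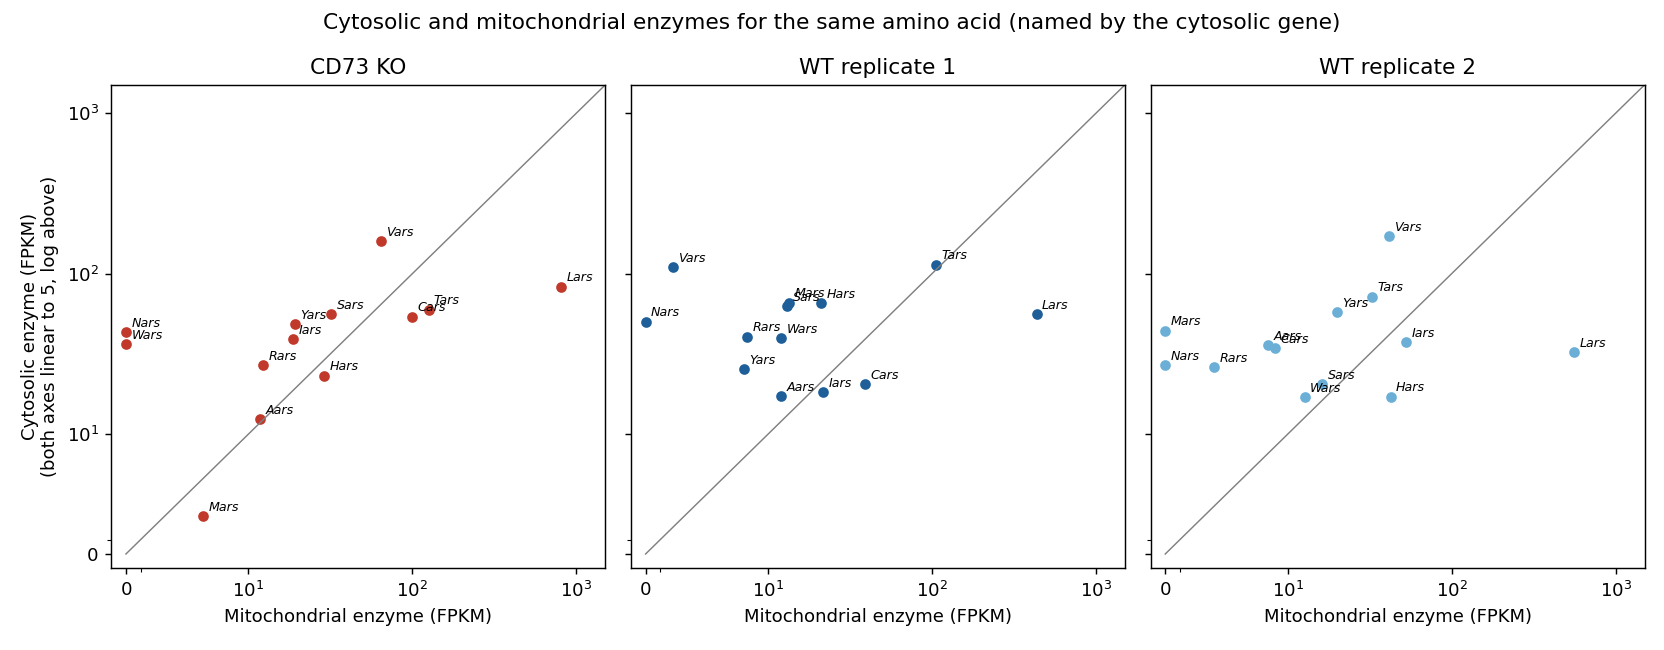
FPKM of the cytosolic enzyme (vertical axis) against that of the mitochondrial enzyme (horizontal axis) for 13 amino acids in the KO library and both WT libraries, on axes that are linear up to 5 FPKM and logarithmic above, each point named by its cytosolic gene. Most points lie above the diagonal of equal levels, and Lars lies far to the right of it in every library.

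By summed FPKM the mitochondrial genes were the higher group in the KO library, while the cytosolic genes were higher in both WT libraries. This order depended on the measure. By counts the mitochondrial genes were also the higher group in WT replicate 2. With FPKM averaged over a gene's rows, the cytosolic genes were higher in every library. A single mitochondrial gene made up most of the mitochondrial sum. The cytosolic genes summed to 1016 FPKM in KO, against 1123 and 943 FPKM in WT, so the KO value lay between the WT values. The mitochondrial genes summed to 1246 FPKM in KO, against 726 and 841 FPKM in WT, and the KO value lay above both. Over all tested genes the summed FPKM was also highest in KO, at 568836, against 527040 and 512463 in WT. FPKM sums are therefore not on the same scale in each library. The mitochondrial share of the summed synthetase FPKM was 55.1% in KO, against 39.3% and 47.1% in WT. Of raw counts it was 58.5% in KO (1101 of 1883; 95% exact binomial interval 56.2% to 60.7%), against 43.5% (877 of 2018; 41.3% to 45.7%) and 51.2% (965 of 1883; 49.0% to 53.5%) in WT. These intervals cover counting error only, and an exact permutation test over 1 KO and 2 WT libraries cannot give a p below 0.33. The interval of the KO library lies above both WT intervals, but the WT intervals are also apart from each other.

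Lars2, the mitochondrial leucine enzyme (chr9:123366927-123462666, plus strand, mm10), made up 64.8% of the mitochondrial FPKM in KO, against 59.9% and 66.4% in WT. It had 823 counts in the KO library, against 611 and 703 counts in the WT libraries, which is 3109 CPM in KO against 1690 and 2163 CPM in WT. That placed it at rank 9 among all genes by count in KO, against rank 25 and rank 13 in WT. Its FPKM was 51.8 times the median of the other mitochondrial genes in KO, against 34.6 and 40.9 times in WT. Without Lars2 the mitochondrial genes summed to 439 FPKM in KO, against 291 and 283 FPKM in WT. Their share was then 30.2% in KO, against 20.6% and 23.0% in WT, and by counts 26.2% in KO (23.6% to 29.0%), against 18.9% (16.9% to 21.1%) and 22.2% (19.9% to 24.7%) in WT. The KO share thus stayed the highest of the 3 libraries without Lars2, but its interval by counts then overlapped that of WT replicate 2.

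**Figure D3:**
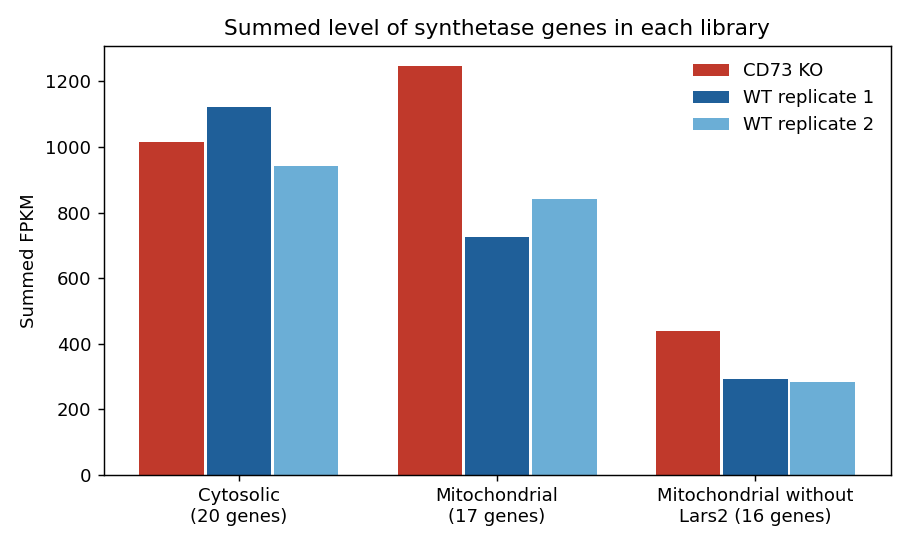
Summed FPKM of the 20 cytosolic genes, the 17 mitochondrial genes and the 16 mitochondrial genes without Lars2, in the KO library (red) and WT replicates 1 and 2 (dark and light blue); each bar is 1 library. The cytosolic sums lie between 943 and 1123 FPKM, whereas leaving out Lars2 takes the KO mitochondrial sum to 439 FPKM, against 1246 FPKM with it.

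The Lars2 transcript shares short stretches with other transcripts. In its untranslated 3' end, which begins after base 2908 of 3894, bases 3278 to 3349 matched Gm15564, an annotated noncoding transcript of another chromosome, over 72 bases at 98.6% identity. Bases 3163 to 3212 matched AA474408, an unclassified transcript, at 96.0%. Neither symbol is among those in the files, and the sources used here do not say how the authors treated reads that match several places. Rn45s, the precursor of ribosomal RNA and the most abundant gene of each library, had 20706 CPM in KO, against 13259 and 14559 CPM in WT. Lars2 counts came to 15.0% of the Rn45s counts in KO, against 12.7% and 14.9% in WT. The part of either in the Lars2 values was not tested.

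The KO library was then compared with the WT pair gene by gene. In bulk RNA, fewer cells of a type and less RNA per cell cannot be told apart. With edgeR's quasi-likelihood test and adjustment by Benjamini and Hochberg over 7984 genes, 0 of the 33 tested synthetase genes passed a threshold of 0.05, where 0.100% of all tested genes passed as higher in KO and 0% as lower. Their adjusted p ranged between 0.25 and 0.99. At an unadjusted p of 0.05 there were 3, with Lars2 higher and Eprs and Mars lower in KO, where the background was 3.53% higher and 6.51% lower. DESeq2 also called 0 of the 33, where it called 0.163% of all tested genes, and at an unadjusted p of 0.05 it had 4 of the 33 (12.1%, against 13.2% of all tested genes). For limma on log2 FPKM the count was 0 of the 33, with 0% of all tested genes, and at an unadjusted p of 0.05 it was 1 (3.03%, against 6.66%).

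The KO value lay above both WT values for 10 of the 33 genes (30.3%, against 31.1% of all tested genes) and below both for 10 (30.3%, against 38.2%). It was at least 2-fold above both for 1 gene (3.03%, against 13.0%), and at least 2-fold below both for 6 (18.2%, against 23.4%). With every count under 3 raised to 3, the number below was 4 (12.1%, against 17.2%), namely Eprs, Farsb, Mars and Wars2. The WT libraries themselves were at least 2-fold apart for 15 of the 33 (45.5%, against 55.1%). The synthetase genes therefore stood outside the WT range no more often than tested genes at large. The median log2 fold change of KO over WT was 0.23 over the 20 cytosolic and 0.29 over the 13 tested mitochondrial genes, against -0.31 over all tested genes. Over genes with a count in every library these medians were 0.23, 0.57 and -0.11. Without Lars2 the mitochondrial median was 0.096, and it was 0.55 with no filter on low counts. Against WT replicate 1 alone the cytosolic median was -0.041.

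**Figure D4:**
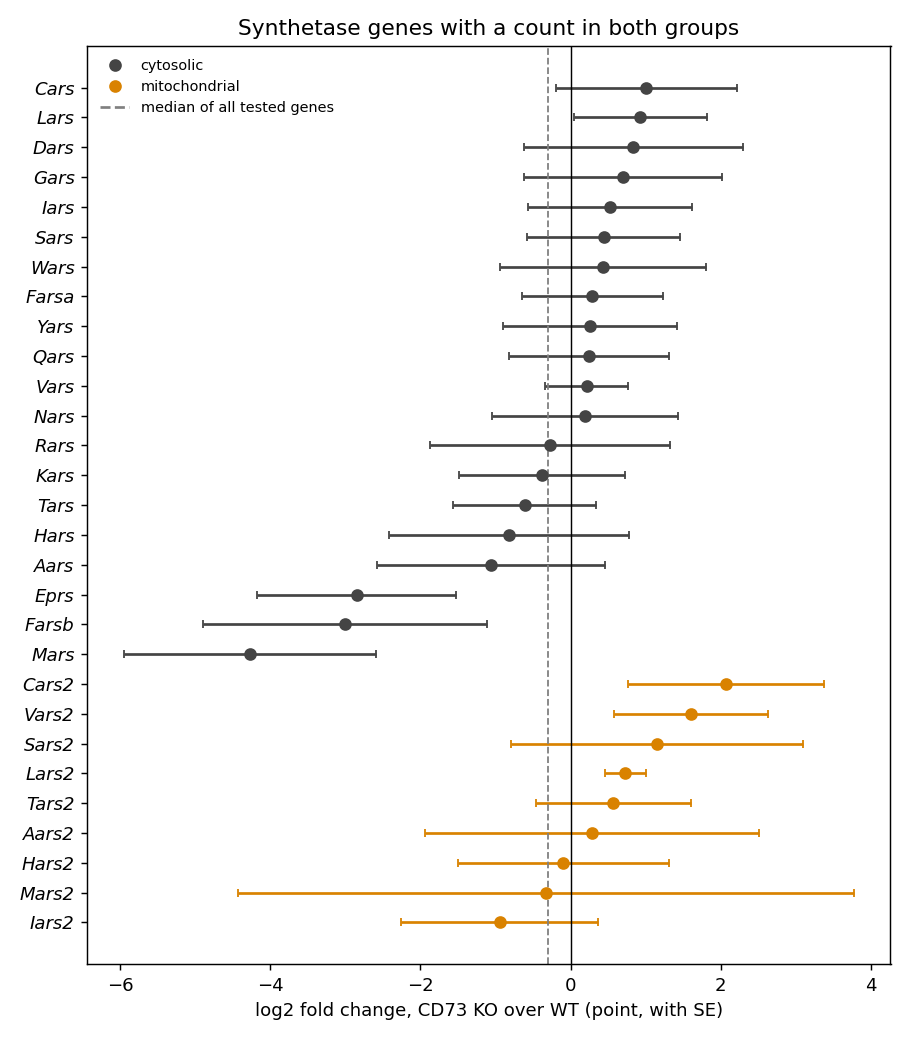
log2 fold change of KO over WT with its SE for 29 tested synthetase genes with counts in both groups, cytosolic in grey above mitochondrial in orange; the dashed line is the median of all tested genes, -0.31. Most SE bars cross 0, and Mars, Farsb and Eprs lie farthest to the lower side, at -4.27, -3.00 and -2.85.

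Within the multisynthetase complex, the KO level of 2 of the 8 genes lay at least 2-fold below both WT levels. Of all tested genes, 23.4% did so. Mars, the methionine enzyme (chr10:127296221-127311786, minus strand), had 2 counts in the KO library, against 68 and 41 counts in the WT libraries. Its level was 7.56 CPM in KO, below the limit that a count of 0 allows, and 157 ± 43.7 CPM in WT (SD, n = 2). KO over WT, this was a log2 fold change of -4.27 (SE 1.68, adjusted p 0.28). The last 68 bases of Mars overlap Ddit3, a stress-response transcription factor on the opposite strand, which had 20 counts in KO and 0 in both WT libraries. As strand use is not stated, reads of that overlap cannot be told apart, and their part in either value was not tested.

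Eprs, which carries the glutamate and proline activities on a single chain (chr1:185363044-185428360, plus strand), had 7 counts in KO, against 79 and 58 counts in WT. That was 26.4 CPM in KO and 198 ± 28.3 CPM in WT (SD, n = 2), with a log2 fold change of -2.85 (SE 1.33, adjusted p 0.43). The WT libraries were close together for Eprs, and the KO library lay apart from both. No protein-coding gene overlaps Eprs in the annotation.

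The other members of the complex went both ways. Lars, the leucine enzyme, which also senses leucine for the mTORC1 kinase, had 85 counts in KO, against 79 and 41 in WT (321 CPM in KO, against 218 and 126 CPM in WT; log2 fold change 0.93, SE 0.88). Iars, for isoleucine, had 45 counts in KO, against 29 and 53 in WT, and Qars, for glutamine, had 44, against 63 and 37. Kars, for lysine, had 32 counts in KO, against 70 and 42 in WT. In CPM the KO value lay above both WT values for Lars and Iars, below both for Kars and between them for Qars. Of the 8 complex members 3 had a KO level above both WT levels (37.5%, against 31.1% of all tested genes) and 3 below both (37.5%, against 38.2%). Iars shares 1656 bases at 96.0% identity with the processed pseudogene Gm4849, so its counts are uncertain. The scaffold genes had few reads: Aimp1 had 10 counts in KO, against 36 and 5 in WT, Aimp2 had 12, against 25 and 33, and Eef1e1 had 0, against 0 and 1.

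Outside the complex Vars, the valine enzyme, was the cytosolic gene with the highest level in each library by CPM. It had 176 counts in KO, against 167 and 233 in WT, with a KO level of 665 CPM between the WT levels of 462 and 717 CPM. Farsa and Farsb encode the alpha and beta chains of the phenylalanine enzyme, which is active only as a tetramer of both. Farsa had 61 counts in KO, against 85 and 49 in WT, and its KO level of 230 CPM lay between the WT levels. Farsb had 3 counts in KO, against 10 and 54 counts in WT (log2 fold change -3.00, SE 1.89, adjusted p 0.64). The Farsb level of 11.3 CPM in KO lay below both WT levels of 27.7 and 166 CPM. The WT libraries lay farther apart than the KO library was from the lower of them. The chains of this enzyme thus gave unlike values, and neither passed the test.

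Tars, for threonine, had 41 counts in KO, against 108 and 61 in WT, and its KO level of 155 CPM lay below both WT levels of 299 and 188 CPM. Sars, for serine, had 53 counts in KO, against 82 and 24 in WT, and Yars, for tyrosine, had 36, against 26 and 53. For both, the KO level lay between widely separated WT levels. Cars, for cysteine, had 42 counts in KO, against 22 and 33 in WT (159 CPM in KO, against 60.8 and 102 CPM in WT; log2 fold change 1.01, SE 1.21). The remaining 7 cytosolic genes had 10 to 48 counts in every library, and of these Dars and Gars had a KO level above both WT levels and Aars below both.

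Among the mitochondrial genes the log2 fold change of Lars2 was 0.73 (SE 0.27, adjusted p 0.25), with 3109 CPM in KO and 1926 ± 335 CPM in WT (SD, n = 2). Cars2, for cysteine, had 48 counts in KO, against 26 and 5 in WT (181 CPM in KO, against 71.9 and 15.4 CPM in WT). It was the gene that lay at least 2-fold above both WT libraries (log2 fold change 2.07, SE 1.31, adjusted p 0.64). Its log2 fold change was 3.58 when WT replicate 1 was left out and 1.37 when WT replicate 2 was left out. Cars2 overlaps Naxd on the opposite strand over 984 bases of the gene, and Naxd had 30 counts in KO, against 24 and 21 in WT. Vars2, for valine, had 74 counts in KO, against 3 and 59 in WT. Its log2 fold change of 1.61 (SE 1.02) rested on WT replicate 1, and was 0.68 against WT replicate 2 alone.

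Tars2, for threonine, had 54 counts in KO, against 78 and 21 in WT, and its KO level lay between the WT levels. Iars2, for isoleucine, had 17 counts in KO, against 27 and 59 in WT. It shares 2034 bases with Rab3gap2 on the opposite strand (29 counts in KO, against 48 and 76 in WT). Ears2, the glutamate enzyme that also feeds mitochondrial glutamine loading, had 0 counts in KO, against 21 and 1 in WT, at least 2.64-fold lower than the WT mean with the KO library set to 3 counts. That bound rests on WT replicate 1, since the 3.08 CPM of WT replicate 2 lie below the KO limit of 11.3 CPM. Bounds of this kind, here and below, cover counting error in the KO library only and not the spread between libraries. Wars2, for tryptophan, had 0 counts in KO, against 19 and 18 in WT, at least 4.63-fold lower (unadjusted p 0.056, adjusted p 0.52). Fars2, for phenylalanine, had 0, against 6 and 14, at least 2.55-fold lower than the WT mean, and at least 1.46-fold lower than WT replicate 1 alone. These 3 genes account for the members at 0 in KO among the 33 tested. Of all 7984 tested genes, 1008 were at 0 in KO, against 481 in WT replicate 1 and 507 in WT replicate 2. Ears2 overlaps Ubfd1 over 89 bases and Fars2 overlaps Lyrm4 over 115 bases, both on the opposite strand. The genes Aars2, Hars2, Mars2, Rars2, Sars2 and Yars2 had 0 to 38 counts, with KO above both WT levels for Rars2 and Sars2.

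The partners of mitochondrial loading had 0 to 3 counts in KO. Qrsl1 had 0 counts in KO, against 17 and 24 in WT, at least 5.18-fold lower (adjusted p 0.45), and Gatc had 0, against 13 and 15, at least 3.52-fold lower. Gatb had 3 counts in KO, against 22 and 0 in WT. Mtfmt, which formylates the methionine initiator in mitochondria, had 2 counts in KO, against 59 and 0 in WT. The log2 fold change was negative for 4 of these 4 genes, where 56.9% of all tested genes were negative. Their median was -2.09 when genes at 0 were set to their bound, against -0.31 over all tested genes, and 0 of 4 passed the test. For Gatb and Mtfmt the WT libraries were themselves far apart and the KO level lay between them. Their negative sign thus rests on WT replicate 1, as both had 0 counts in WT replicate 2. In the list of editing and related enzymes, 3 of 7 were tested and 0 passed. Its most abundant genes were Aarsd1 with 28 counts in KO, against 38 and 3 in WT, Sepsecs with 12, against 23 and 7, and Tarsl2 with 11, against 0 and 14.

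The amino acid starvation response was set beside the synthetases because its factor Atf4 acts on several of them. Of 25 listed genes 15 were tested and 0 passed; at an unadjusted p of 0.05 there were 2 higher and 2 lower in KO (13.3% each, against 3.53% higher and 6.51% lower of all tested genes). Their median log2 fold change was -0.72, against -0.31 over all tested genes. Atf4 itself had 35 counts in KO, against 117 and 40 in WT. Its KO level of 132 CPM lay between the WT levels of 324 and 123 CPM. The most abundant genes were Shmt2, of serine and folate metabolism, with 119 counts in KO, against 88 and 84 in WT, the amino acid transporter chain Slc3a2 with 68, against 73 and 131, and the transporter Slc38a2 with 67, against 124 and 47. In CPM the KO level lay above both WT levels for Shmt2 and between them for Slc3a2 and Slc38a2. Genes past the unadjusted threshold went both ways. The arginine transporter Slc7a1 had 49 counts in KO, against 11 and 0 in WT, and Ddit3 stood with it on the higher side. Phgdh, the first enzyme of serine synthesis, had 11 counts in KO, against 120 and 56 in WT, and Mthfd2, of mitochondrial folate metabolism, had 0, against 47 and 9.

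An element bound by Atf4 with a C/EBP partner, searched as TGATGNAA on both strands of the 150 bases upstream of the start, was present in 3 of the 27 synthetase genes with a window. It was present in 2.23% of all 32851 windows (RefSeq, GRCm38.p6). The 3 genes were Aars, Gars and Tars, and their windows are shown because they link the members to the starvation list. Capitals mark this element, in each case on the reverse strand, and in Aars also an E-box, CACGTG, the site of Myc and related factors, which 4.3% of all windows hold. They are written 5' to 3' on the strand of the gene: Aars at chr8:111033692-111033841 (plus), Gars at chr6:55037851-55038000 (plus) and Tars at chr15:11399659-11399808 (minus).
Aars: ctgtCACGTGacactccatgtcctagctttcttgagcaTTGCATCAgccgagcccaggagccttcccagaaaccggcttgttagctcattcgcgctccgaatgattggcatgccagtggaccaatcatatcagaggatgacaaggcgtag
Gars: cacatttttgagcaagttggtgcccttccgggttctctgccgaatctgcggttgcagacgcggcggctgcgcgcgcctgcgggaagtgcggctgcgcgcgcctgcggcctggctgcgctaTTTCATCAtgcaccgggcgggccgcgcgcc
Tars: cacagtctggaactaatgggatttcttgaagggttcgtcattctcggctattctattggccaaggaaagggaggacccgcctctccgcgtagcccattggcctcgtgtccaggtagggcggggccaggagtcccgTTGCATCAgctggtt

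These 3 genes did not share a direction. Aars, for alanine, had 12 counts in KO, against 23 and 43 in WT, with the KO level below both WT levels. Its last 1326 bases overlap Exosc6 on the same strand (10 counts in KO, against 2 and 5 in WT), so its counts are uncertain. Gars, for glycine, had 32 counts in KO, against 34 and 19 in WT, with the KO level of 121 CPM above both WT levels of 94.0 and 58.5 CPM. Tars was below both, as given above, and its log2 fold change was -0.61 (SE 0.96). For each of the 3 the SE was larger than the size of the log2 fold change, so the differences between KO and WT lay within their error. Counting error alone would give an SE of 0.45 for Aars, 0.32 for Gars and 0.25 for Tars, below the fitted SE of 1.52 for Aars, 1.32 for Gars and 0.96 for Tars. The E-box was also present upstream of Farsb and Iars. A match of letters is a description of the window and does not show that a factor binds there.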

How the data were processed

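Per the labels' protocols, RNeasy micro and NEB kits served for RNA extraction and library preparation. The submitters' processing notes name STAR and mm10, without versions or roles; the sources used here name neither the counting and FPKM tools nor the use of strand. The deposited counts and the deposited FPKM are per RefSeq transcript. A gene's count was its highest count over 1 or more rows, its FPKM the sum over rows, and CPM was taken on the total of gene counts. Groups came from the sample titles. edgeR 4.0.16 (filterByExpr, TMM, quasi-likelihood F-test, threshold 0.05 after Benjamini-Hochberg adjustment) was fitted to all genes in R 4.3.3. Only the WT pair gives a residual degree of freedom (1), and the single KO library is taken to have the same spread. No label says that the WT libraries are separate animals, so p-values reflect a spread that may be technical. The common biological coefficient of variation was 0.81. SE was the absolute log2 fold change over the square root of F. The code of the fit was tested on simulated data with a smaller spread than these libraries have, which does not measure its power here. Alternatives were DESeq2 1.42.0, limma 3.58.1 on log2(FPKM + 1), other scalings, filters and gene counts, and leaving out each WT library. "At least 2-fold" was taken on CPM plus 1. Transcripts were compared with blastn 2.17.0 (at least 95% identity over 50 bases). Gene positions and overlaps were taken from the GENCODE annotation of mm10.

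Members and lists were chosen with earlier results of these data known. Named genes were members that reached 50 counts in any library and, per direction, the 4 with at least 20 counts and the largest fold with KO outside both WT values. In the context lists they were the 3 most abundant and those past the test. Aars, Dars, Gars, Fars2, Wars2, Nars2, Pars2, Atf4, Ddit3, Slc7a1, Phgdh, Mthfd2 and the members named without values were chosen after their values were seen. For 1 member no single value is reported here; it stays in counts, medians and sums over members.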

Additional observations from a re-analysis of the deposited data

How the results depend on the processing

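No paired analysis was possible because the KO library is single and carries no replicate number. In every alternative run, 0 synthetase genes passed the test in either direction. Leaving out a WT library leaves 1 library a group and no test, so values only were compared; the median log2 fold change then ranged from -0.041 to 0.30 for cytosolic genes, from 0.25 to 0.63 for mitochondrial genes and from -0.11 to -0.095 for all tested genes. Of 178 fold changes of named members under alternatives, 173 kept their sign. Those that did not had a value above 0 that had not passed, and fell below 0 when a WT library was left out. Without WT replicate 2 Qars was at -0.028, Sars at -0.14 and Tars2 at -0.041, against 0.60, 1.49 and 1.71 without WT replicate 1. Without WT replicate 1 Vars was at -0.050 and Yars at -0.20, against 0.56 and 0.96 without WT replicate 2. The cause was not tested.

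Over all genes, 8 were higher in the main test, 3 with upper quartile scaling, 4 without a filter, 1 with the mean count over rows, 0 with at least 10 counts in every library or 50 in any (340 at an unadjusted p of 0.05) and 0 with limma on log2 FPKM (532). DESeq2 called 2 lower genes, against 0 (520 at an unadjusted p of 0.05). The median over all tested genes, -0.31, was -0.36 with upper quartile scaling, -0.35 on library totals, -0.60 without a filter, -0.10 with the stricter filter and -0.11 as a difference of log2(FPKM + 1). The mitochondrial share of the summed level was 39.7% in KO, against 26.5% and 35.3% in WT, when FPKM was averaged over a gene's rows. Alternatives chosen after the data were seen raised counts under 3 to 3 or left out Lars2. Without Lars2 the share was 30.2% in KO, against 20.6% and 23.0% in WT, by FPKM, and 26.2% in KO, against 18.9% and 22.2% in WT, by counts. The summed mitochondrial level was 1050.2 CPM in KO, against 736 and 806 CPM in WT, without Lars2, and 4159 CPM in KO, against 2425 and 2970 CPM in WT, with it. The KO share was the highest of the 3 libraries in each of these. The mitochondrial median of 0.29 was 0.55 without a filter, 0.54 with the stricter filter and 0.51 as a difference of log2(FPKM + 1). Depth was low, with 34 of the 37 members under 100 counts in every library. Over the 30 tested members with counts in both groups, the median SE of the log2 fold change was 1.31, against 0.33 from counting error alone; the fitted SE fell below 0.5 for Lars2 alone.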

Other observations

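By structural class, 10 of the 16 tested class I enzymes and 9 of the 16 tested class II enzymes had a positive log2 fold change, with medians of 0.25 and 0.24, where 43.1% of all tested genes were positive; Eprs, which joins both classes, was left out. The KO level lay between the WT levels for 13 of the 33 tested members, against 2448 of all 7984 tested genes. A KO level equal to a WT level could also count as between. For a gene counted as between, the WT libraries necessarily differ by at least as much as KO does from either. Mars2, the mitochondrial methionine enzyme, had 4 counts in KO, against 14 and 0 in WT, and Hars, the cytosolic histidine enzyme, had 12, against 47 and 11. Hars overlaps its mitochondrial counterpart Hars2 head to head over 198 bases, and Hars2 had 21 counts in KO, against 21 and 38 in WT. These members were chosen after their values were seen.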
